A study of Mus musculus with 24 samples.

Results

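The genes described here are the 98 protein-coding genes that code for subunits of the respiratory chain and of ATP synthase in fasted mouse liver, out of 35275 genes in the count table. They were chosen by chromosome and symbol, not by expression. The 13 mitochondrial members are the protein-coding genes of the mitochondrial chromosome. The 85 nuclear members are the genes whose symbols start with Nduf (Ndufaf assembly factors left out), Uqcr, Cox4 to Cox8 or Atp5, together with Sdha, Sdhb, Sdhc and Sdhd. By symbol, 38 nuclear members belong to complex I, 4 to complex II, 8 to complex III, 18 to complex IV and 17 to complex V. The symbols are not exact at the edges: Ndufa4 and Ndufa4l2 are proteins of complex IV, and Atp5sl, now called Dmac2, is an assembly factor of complex I and not a subunit of ATP synthase.

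The respiratory chain passes electrons from NADH (complex I) and succinate (complex II) through ubiquinone to complex III, cytochrome c and complex IV, where oxygen is reduced, and complex V uses the proton gradient to make ATP. Complexes I, III, IV and V are built from subunits of both genomes, whereas complex II is wholly nuclear encoded. In fasted hepatocytes, fatty acid oxidation feeds this chain with NADH and FADH2, and the mitochondrial genes are transcribed from both strands as long precursors that are cut into single RNAs.

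The study asked whether activation of the growth-promoting kinase complex mTORC1, by loss of its brake Tsc1, can suppress the fasting programme of liver, with or without the ability to oxidise long-chain fatty acids, which needs Cpt2. Liver RNA of 8- to 10-week-old male C57BL/6 mice, all fasted for 24 h, was sequenced in 6 groups of 4 libraries. The control group is labelled wild type, and the study describes its controls as littermates with both alleles of Tsc1 and Cpt2 floxed. Tsc1L-/-, Cpt2L-/- and Tsc1Cpt2L-/- mice, the last called DKO here, lost these genes through a Cre transgene under the albumin promoter, so that cells of liver other than hepatocytes keep them. The remaining groups, labelled PPAR-a KO (Ppara KO here) and Cpt2L-/- Ppara KO, lack the fatty acid receptor Ppara alone or together with hepatocyte Cpt2, and the study's methods do not describe how these Ppara mice were made. The descriptions give 1 identifier per library but do not say that replicates came from separate mice, and p-values measure the spread between these libraries.

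Each library held 14470968 to 20371204 counts, and no pair of libraries in a group agreed within sampling noise. Tsc1 stood at 37.2 to 40.1 CPM (counts scaled to library size with the TMM factors of edgeR) in control, at 18.1 to 28.8 in Tsc1L-/- and at 15.3 to 17.9 in DKO. Ppara stood at 216 to 277 CPM in control, at 13.2 to 44.6 in Ppara KO and at 26.2 to 89.9 in Cpt2L-/- Ppara KO. The count of Cpt2 did not check its label, with 79.9 to 105 CPM in Cpt2L-/- against 88.2 to 104 in control. Replicate 1 of Ppara KO (94.8 CPM) and of Cpt2L-/- Ppara KO (123 CPM) stood apart in Cpt2 from the other 3 libraries of each group, which lay between 31.4 and 51.4. Libraries also differed in how short genes stood against long ones. Genes under 1000 bases other than the members had a median deviation of 0.90 (log2) above the mean of all libraries in replicate 1 of Cpt2L-/- Ppara KO and of -0.58 in replicate 4 of Ppara KO. Summed hepatocyte markers stood above those of every other cell type list in each library. Their level was 68080 to 87140 CPM in control, and all libraries of Cpt2L-/- (38870 to 64020), DKO (31700 to 38620) and Cpt2L-/- Ppara KO (43130 to 60050) lay below it. Alb, the largest part of the sum, had a mean of 43850 in control, 28650 in Cpt2L-/-, 12600 in DKO and 25420 in Cpt2L-/- Ppara KO. Cps1 had a mean of 5138 in control, 5077 in Cpt2L-/- and 6356 in Cpt2L-/- Ppara KO. In DKO the means of all hepatocyte markers were lower than in control. The sum of 8 markers of Kupffer cells and macrophages was 184.5 to 308.4 CPM in control, higher without overlap in Cpt2L-/- Ppara KO (313.1 to 386.3), and overlapped with control in the other groups. Within that list, the means of Cd68 (8.53 in control and 92.6 in DKO) and Gpnmb (1.71 and 94.4) were higher in DKO, while those of Clec4f, Vsig4, Cd5l, Emr1, Timd4 and Trem2 were lower, such as Clec4f at 87.9 and 45.4. The sum of 4 cholangiocyte markers was 4.76 to 10.1 CPM in control and 12.4 to 29.2 in Ppara KO, where the means of Sox9 (3.26 and 16.4) and Krt7 were higher and those of Krt19 and Epcam were lower. Stellate cell and fibroblast markers summed to 251.6 to 328.9 CPM in control. Their sum was lower without overlap in Tsc1L-/- (161.5 to 239.9), DKO (150.7 to 191.1) and Cpt2L-/- Ppara KO (168.8 to 220), though mean Lrat was higher in the last. Endothelial markers summed to 255.9 to 291.1 CPM in control and 129.6 to 226.6 in Cpt2L-/- Ppara KO, where mean Clec4g and Lyve1 were higher and the others lower. The part of these differences in the results for the members was not tested. The summed level of 8 markers of fat and striated muscle, which use special complex IV subunits, was 0 to 0.41 CPM in control and reached 4.88 in 1 library of Cpt2L-/- and 8.10 in 1 of Cpt2L-/- Ppara KO.

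Per length of gene, the 7 highest members were mitochondrial. In control, mt-Co1, the catalytic core of complex IV, had 10820 ± 1513 FPKM (SD, n = 4; reads scaled by library total and gene length), and mt-Cytb, the core of complex III, had 6537 ± 1315. Next were mt-Nd2, mt-Nd1, mt-Nd5, mt-Nd4 and mt-Nd6 at 5198, 4406, 2361, 2221 and 1880 FPKM. The other 6 lay between 9.49 (mt-Atp8) and 56.2 FPKM (mt-Co2), below many nuclear members. The SDs of mt-Nd5 (312), mt-Nd4 (439) and mt-Nd6 (297) reach into each other, so that neighbours in this part of the order do not differ beyond their spread. The highest nuclear member was Atp5b, the catalytic beta subunit of ATP synthase, at 754 ± 25.8 FPKM, followed by Cox6a1 at 603 ± 66.6 and Ndufa4 at 482 ± 50.9. All 4 catalytic and anchor subunits of complex II were measured, Sdha at 182 ± 14.3, Sdhb at 153 ± 13.8, Sdhd at 151 ± 12.2 and Sdhc at 50.4 ± 2.04 FPKM.

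The liver forms of the complex IV subunits with tissue-restricted partners dominated their partners in control. Cox4i1 stood at 399 FPKM and Cox4i2, the form of lung and low oxygen, at 0.226. Cox6a1 stood at 603 against 0.108 for Cox6a2, the heart and muscle form, and Cox8a at 360 against 0.192 for Cox8b. Cox7a2 stood at 109 FPKM and Cox7a1, the heart and muscle form, at 2.37, and Cox6b1 at 300 against 2.15 for Cox6b2, the form of testis. Cox7b2 had no count in any library and Cox8c had at most 1. These restricted forms, apart from Cox7a1, Cox6b2 and Ndufa4l2, were too low to be tested: 80 of the 85 nuclear members passed the filter on low counts in the fits of 16 libraries, and all 13 mitochondrial members passed in every fit.

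Several mitochondrial members cannot be counted cleanly. Nuclear copies of mitochondrial DNA on chromosome 1 (GRCm38, chr1:24611535-24616197) carry annotated pseudogenes. Of the 75-base stretches of mt-Co2, mt-Atp6, mt-Co3, mt-Nd3 and mt-Nd4l, the length of 1 read, 97.8 to 99.9% also occur in another gene's transcript. This share was 61.5% for mt-Nd4, 39.8% for mt-Co1, 5.71% for mt-Nd2, 1.66% for mt-Nd5 and 0 for mt-Nd1, mt-Nd6, mt-Cytb and mt-Atp8. Reads that match both places cannot be assigned, so values of the first 5 genes are uncertain. These 5 and mt-Atp8, which shares no stretch, are the 6 low mitochondrial members above. None of the 85 nuclear members shared over 50% of its stretches with another gene and 52 shared none. The start of mt-Nd3, a core membrane subunit of complex I, is shown beside that of its copy, with the only base that differs in this stretch in capitals. The first lies at chrMT:9459-9501 on the plus strand and the second, the pseudogene RP23-8J15.5, at chr1:24613077-24613119 on the minus strand, both in GRCm38.
mt-Nd3: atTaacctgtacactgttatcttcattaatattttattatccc
RP23-8J15.5: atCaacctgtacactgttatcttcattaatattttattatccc
Of the 274 stretches of read length in mt-Nd3, 268 are identical in the copy, and only reads over positions such as this one can separate them.

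Summed over genes, mitochondrial members took 4.23 ± 0.565% of all counts in control (SD, n = 4; range 3.78 to 5.04). The share was 5.5 ± 0.889% in Tsc1L-/-, 6.57 ± 1.14% in Cpt2L-/- and 5.83 ± 0.564% in DKO. It was 5.52 ± 0.798% in Ppara KO and 6.44 ± 1.0% in Cpt2L-/- Ppara KO. All libraries of Cpt2L-/- (5.45 to 8.06), of DKO (5.08 to 6.41) and of Cpt2L-/- Ppara KO (5.20 to 7.32) lay above all control libraries, whereas Tsc1L-/- (from 4.91) and Ppara KO (from 4.38) overlapped with control. Nuclear members took a smaller share, 1.25 ± 0.0621% in control, 1.39 ± 0.102% in Tsc1L-/-, 1.24 ± 0.170% in Cpt2L-/- and 1.45 ± 0.0520% in DKO. Their lowest share was in Ppara KO, at 1.01 ± 0.153%, and their highest in Cpt2L-/- Ppara KO, at 1.57 ± 0.321%. In bulk liver RNA, fewer cells of a type and less RNA per cell cannot be told apart.

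**Figure D1:**
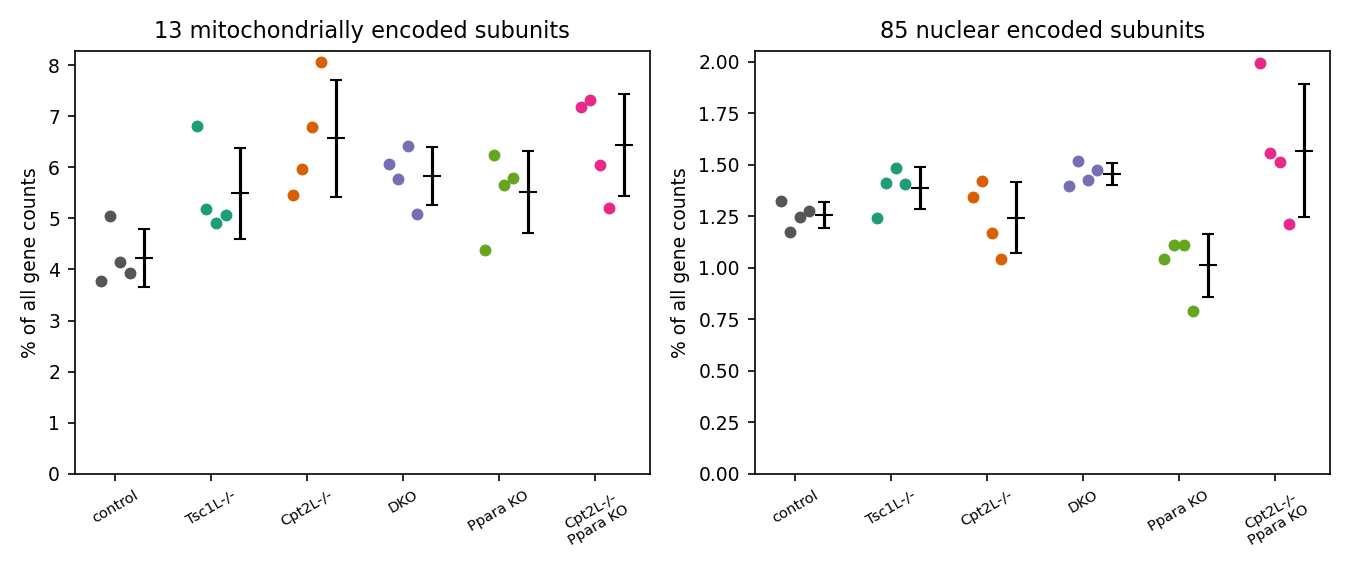
Share of all counts (percent, y axis) on mitochondrial and on nuclear members in each of the 24 libraries, by genotype (x axis); points are libraries and bars are means with SD (n = 4). The mitochondrial share is lowest in control (3.78 to 5.04) and the nuclear share is lowest in Ppara KO.

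The first comparison asked what loss of Tsc1 did to these genes in the fasted state. Of the 80 nuclear members tested, 4 were called higher in Tsc1L-/- than in control and 0 lower by edgeR's quasi-likelihood test with Benjamini-Hochberg adjustment over all genes. Across all genes 6.64% were called, 4.16% higher and 2.48% lower, so a share of this size is near the background. Called members were Cox7a1, Atp5g1 (a membrane ring subunit of ATP synthase), Cox5a (a matrix-side subunit of complex IV) and Ndufa1 (a small membrane subunit of complex I). Of the 13 mitochondrial members, 0 were called by edgeR, 2 had an unadjusted p under 0.05, and DESeq2 called 0. All 13 fold changes were above 0, with a median log2 fold change of 0.32 beside 0.01 for all genes tested. It was 0.18 without replicate 1 of Tsc1L-/-, the library with the highest mitochondrial share of its group, and 0.53 without replicate 2 of control. For nuclear members the median was 0.07, with 62 of 80 above 0.

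Cox7a1 was the member with the largest rise. It stood at 1.15, 1.10, 0.822 and 0.581 CPM in the control libraries and at 3.52, 4.44, 2.10 and 2.75 CPM in Tsc1L-/-. The groups did not overlap, and the log2 fold change was 1.81 ± 0.41 (SE; adjusted p = 0.0111). In Cpt2L-/- it had a log2 fold change of 0.81 ± 0.41 (adjusted p = 0.147). The counts behind it were low, 10 to 19 reads per control library. Control libraries did not carry Cox7a1 past the filter in the fit with Ppara KO (below). It passed here with libraries of groups where it stands higher than in control, so these values are a description. Summed markers of fat and striated muscle stood at 0 to 0.136 CPM in Tsc1L-/-, with Plin1, Ucp1, Actn2, Myh7 and Pvalb at 0.

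The levels of Cox5a are a smaller case of the same comparison. Its 4 control libraries lay between 55.2 and 71.1 CPM and those of Tsc1L-/- at 77.5, 99.3, 81.5 and 75.4 CPM. Again the groups did not overlap, with a log2 fold change of 0.45 ± 0.12 (adjusted p = 0.0357). Atp5g1 differed by 0.48 ± 0.13 (adjusted p = 0.0304) and Ndufa1 by 0.45 ± 0.12 (adjusted p = 0.0302). Of the 4 called members, only Cox7a1 was called whichever of the 16 libraries was left out, with the limit of the filter given above.

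In Cpt2L-/- against control, called mitochondrial members were higher and called nuclear members lower. Of the 13 mitochondrial members 4 were called higher and 0 lower, where 31% of all genes were called, 16.2% of all tested being higher and 14.9% lower. All 13 mitochondrial fold changes were above 0 and their median was 0.58. Of 80 nuclear members, 11 were called lower and 0 higher, with a median of -0.15 and 67 of 80 below 0. With an offset for each library's trend with gene length, an alternative chosen after seeing the data, the median was -0.04, with 9 called lower, all among the 11, and 2 higher (Atp5g3 and Cox5b). The median of all genes was -0.02, and that of other genes under 1000 bases, a class that holds 42 of the 80 nuclear members tested, was -0.15. Leaving out 1 library at a time gave 4 nuclear calls without replicate 1 of control and 23 without replicate 2 of Cpt2L-/-, the extremes of 16 such fits, and the median was -0.06 without replicate 4 of Cpt2L-/- and -0.24 without replicate 2.

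The called mitochondrial genes were mt-Nd1 and mt-Nd4 of complex I, mt-Co2, which takes electrons from cytochrome c in complex IV, and mt-Atp6, part of the proton channel of ATP synthase. Of these only mt-Nd1 shares no stretch with a nuclear copy. Its control libraries held 3807, 5666, 4469 and 3861 CPM and those of Cpt2L-/- 5597, 7631, 8288 and 10601 CPM. The lowest Cpt2L-/- library overlapped with the highest control library, and the log2 fold change was 0.85 ± 0.20 (adjusted p = 0.00402). For mt-Co2 it was 0.91 ± 0.21 (adjusted p = 0.00342), for mt-Nd4 0.67 ± 0.22 (adjusted p = 0.0288) and for mt-Atp6 0.67 ± 0.23 (adjusted p = 0.0324). Calls of mt-Nd1 and mt-Co2 held when any of the 16 libraries was left out, while those of mt-Nd4 and mt-Atp6 did not. With the counts of nuclear copies added to their mitochondrial genes, also chosen after seeing the data, 5 mitochondrial members were called, the same 4 and mt-Co3.

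The 11 nuclear members that fell were 6 of complex I (Ndufb4, Ndufv3, Ndufa7, Ndufb11, Ndufa1 and Ndufb7), Uqcr11 and Uqcrq of complex III, and Atp5sl, Atp5j and Atp5e by symbol in complex V. None was in complexes II and IV. Ndufb4, a small subunit of the membrane arm of complex I, lay at 33.1 to 41.1 CPM in control and at 27.5, 29.98, 22.8 and 19.9 CPM in Cpt2L-/-. These groups did not overlap, with a log2 fold change of -0.55 ± 0.13 (adjusted p = 0.00345). Uqcr11, at -0.39 ± 0.14 (adjusted p = 0.0479), was close to the threshold and lost its call in 13 of 16 fits that left out 1 library. Uqcrq differed by -0.38 ± 0.13 (adjusted p = 0.0402).

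Atp5sl had the largest fall of all members in this comparison. Control libraries held 44.8, 34.4, 46.0 and 36.1 CPM, those of Tsc1L-/- 34.6, 57.0, 49.2 and 47.7, those of Cpt2L-/- 18.8, 25.2, 20.9 and 13.9, and those of DKO 16.2, 18.8, 14.7 and 18.3. Of these 4 groups, the highest library without Cpt2 lay below the lowest library with it. The log2 fold change was -1.04 ± 0.17 (adjusted p = 0.000217) in Cpt2L-/- and -1.23 ± 0.18 (adjusted p = 3.54e-05) in DKO, both against the same control libraries. Between DKO and Tsc1L-/-, which share the Tsc1 deletion, it was -1.46 ± 0.18 (adjusted p = 9.57e-06). All 3 calls held whichever library was left out.

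**Figure D2:**
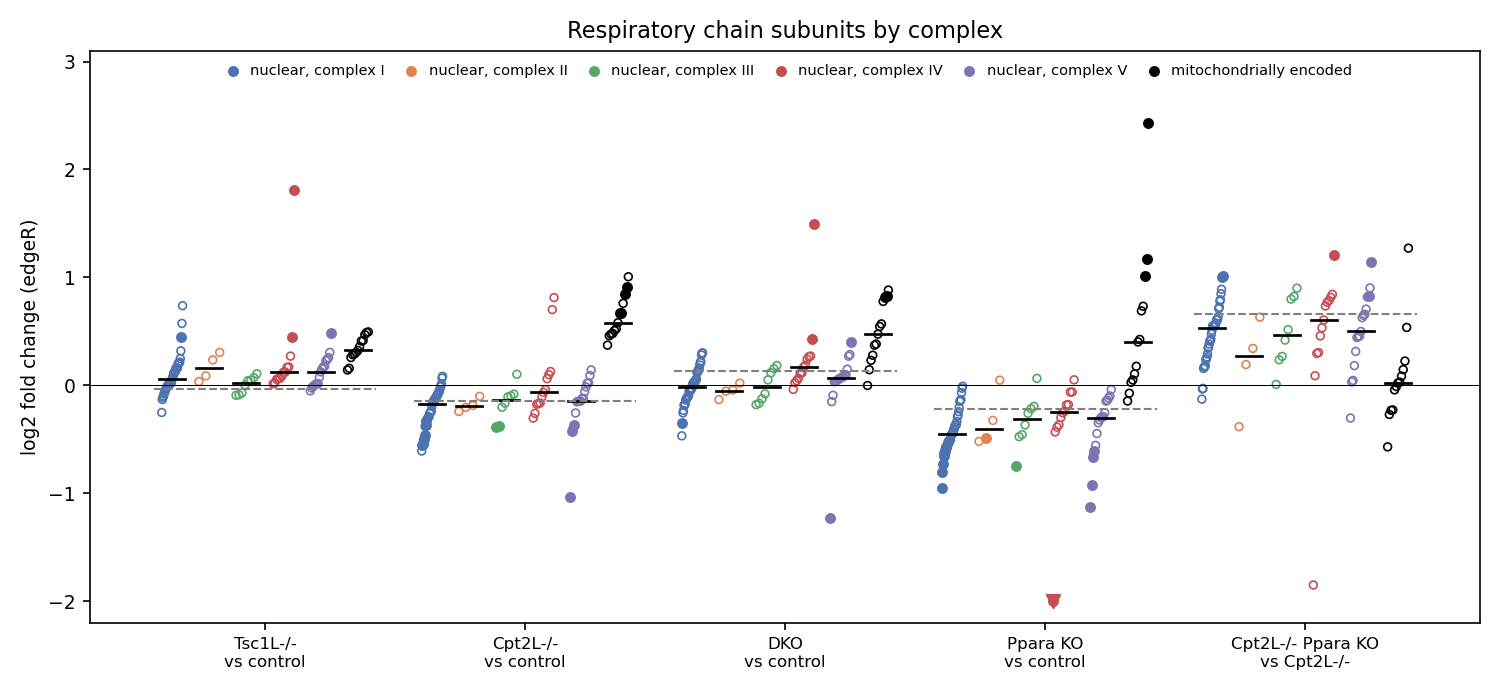
Log2 fold change (y axis) of each nuclear and mitochondrial member by complex (x axis) in 5 comparisons; filled points were called by edgeR, open points were not, black bars are medians and the dashed grey line is the median of other genes under 1000 bases. Cox6b2 in Ppara KO, at -3.92, is drawn as a triangle at the lower edge. Mitochondrial members lie mostly above 0 against control, and the medians of nuclear members lie below 0 in Ppara KO and above 0 in Cpt2L-/- Ppara KO against Cpt2L-/-, as the dashed line does.

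In DKO against control, 3 nuclear members were called higher and 2 lower where 36.4% of all genes were called, 19.3% higher and 17.1% lower. The members that rose were Cox7a1 (1.5 ± 0.41, adjusted p = 0.00801), Cox5a (0.43 ± 0.12, adjusted p = 0.0113) and Atp5g3, another ring subunit of ATP synthase (0.40 ± 0.12, adjusted p = 0.0183). Cox7a1 lay at 2.94, 1.18, 3.84 and 2.30 CPM in DKO, above all control libraries, though replicate 2 by little. It passed the filter with libraries of groups where it is higher, as given above, so this too is a description. Cox5a lay at 75.5, 81.8, 77.8 and 91.8 CPM, clear of control. Atp5sl (above) and Ndufb11 (-0.35 ± 0.11, adjusted p = 0.0175) were the members that fell. The median of nuclear members was 0.04, beside 0.02 for all genes. Among mitochondrial members, mt-Co2 (0.83 ± 0.21, adjusted p = 0.00553) and mt-Atp6 (0.82 ± 0.23, adjusted p = 0.00998) were called higher, the median was 0.47 and 12 of 13 lay above 0. The median of mitochondrial members was 0.32 without replicate 3 of DKO and 0.72 without replicate 2 of control. Scaling by total counts without TMM moved the median of all genes in this comparison from 0.02 to 0.17, and nuclear members called then numbered 15 higher and 1 lower.

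DKO was also set against each of its parts. Against Cpt2L-/-, 7 nuclear members were called higher and 0 lower where 18.3% of all genes were called, 10.9% higher and 7.4% lower. These were Ndufs5 (0.60 ± 0.13, adjusted p = 0.00549), Ndufa1 (0.59 ± 0.12, adjusted p = 0.00295), Ndufc1, Ndufb4, Cox5a, Atp5g1 and Atp5e (0.45 ± 0.11, adjusted p = 0.00995). Their median over 80 nuclear members was 0.20, with 74 above 0, and that of other genes under 1000 bases was 0.27. With the offset for gene length the median of nuclear members was 0.03 and 5 were called, all among the 7. Leaving out 1 library at a time gave 2 calls without replicate 3 of Cpt2L-/- and 19 without replicate 2. Of the mitochondrial members, 0 were called by edgeR, 1 had an unadjusted p under 0.05 and DESeq2 called 0, with a median of -0.13. That median was -0.37 with the offset for gene length, -0.05 with total counts without TMM and -0.27 without replicate 3 of DKO.

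Against Tsc1L-/-, 2 nuclear members were called higher and 5 lower in DKO where 32.2% of all genes were called, 16.9% higher and 15.2% lower. Ndufs4 (0.31 ± 0.11, adjusted p = 0.0399) and Atp5g3 (0.38 ± 0.12, adjusted p = 0.0248) rose. With total counts without TMM the split was 4 higher and 1 lower and the median of nuclear members turned from -0.05 to 0.04, while with the offset for gene length it was 2 higher and 15 lower. Atp5sl, Ndufa4l2, Ndufb2, Ndufa13 and Sdhd fell in the fit with TMM, Sdhd, a membrane anchor of complex II, by 0.36 ± 0.12 on the log2 scale (adjusted p = 0.0332). Ndufa4l2, a low-oxygen relative of Ndufa4, fell by 1.21 ± 0.42 (adjusted p = 0.0370) from 0.956 to 1.44 CPM in Tsc1L-/- to 0.390 to 0.641 in DKO, at few reads. It did not pass the filter in the fit of Ppara KO and control. Of the 2 groups compared here it is high only in Tsc1L-/-, so its call among the 5 is a description. Of the mitochondrial members, 0 were called by edgeR, 1 had an unadjusted p under 0.05 and DESeq2 called 0.

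The interaction term asks whether the effect of Cpt2 loss differed between livers with and without Tsc1. Of the nuclear members 0 were called by edgeR, 2 had an unadjusted p under 0.05 and DESeq2 called 0. Of the mitochondrial members 0 were called, 4 had an unadjusted p under 0.05 and DESeq2 called 1. Over all genes 2.38% were called, 1.09% higher and 1.28% lower. The median of mitochondrial members was -0.49, and -0.82 with the offset for gene length. The largest term was that of mt-Nd1, the gene called by DESeq2, at -0.88 ± 0.29 (adjusted p = 0.108 by edgeR). mt-Nd5 had -0.82 ± 0.33 (adjusted p = 0.186) and mt-Nd6 -0.64 ± 0.30 (adjusted p = 0.255). A value that misses the threshold does not show that the effects were alike.

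In the comparison of Ppara loss alone, called nuclear members were all lower. In Ppara KO against control, 16 of 78 nuclear members tested were called lower and 0 higher, where 27.5% of all genes were called, 14.8% higher and 12.7% lower. The 16 include Cox6b2, which passed the filter only through control (below). Only 3 of the 78 had a fold change above 0, and the median was -0.37. For other genes under 1000 bases the median was -0.22, for the 40 nuclear members under 1000 bases -0.45 and for the 38 longer ones -0.33. The libraries differ in how short genes stand, as given above. With an offset for gene length the median was -0.20, and 11 members were called, all among the 16. Without the libraries with the steepest trends, which here removes replicate 4 of Ppara KO, the median was -0.24 and 16 were called, 14 of them the same. Leaving out 1 library at a time gave between 5 calls, without replicate 1 of control, and 24, without replicate 2 of Ppara KO.

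The members that fell were 9 of complex I, Sdhc, Uqcr11, Cox6b2, Atp5sl, Atp5k, Atp5j and Atp5e. In complex I the largest fall was that of Ndufa6, a matrix-arm subunit of the LYR family. Its control libraries held 155, 147, 125 and 136 CPM and those of Ppara KO 58.0, 96.9, 82.7 and 56.1 CPM, without overlap. The log2 fold change was -0.95 ± 0.19 (adjusted p = 0.00583). Ndufb10 (-0.80 ± 0.17, adjusted p = 0.00692), Ndufb11 (-0.73 ± 0.17, adjusted p = 0.0126) and Ndufs8, an iron-sulfur subunit (-0.58 ± 0.12, adjusted p = 0.00721), were also called whichever of the 8 libraries was left out. Sdhc, the other membrane anchor of complex II, fell by 0.48 ± 0.14 (adjusted p = 0.0311). Sdha, the flavoprotein, lay at -0.33 ± 0.14 (adjusted p = 0.114), Sdhd at -0.52 ± 0.18 (adjusted p = 0.0590) and Sdhb, the iron-sulfur subunit, at 0.05 ± 0.19 (adjusted p = 0.875).

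Among the complex V members, Atp5k, the e subunit at the dimer interface of ATP synthase, lay at 97.6, 92.7, 64.0 and 88.9 CPM in control and at 35.7, 64.4, 57.9 and 23.7 CPM in Ppara KO. The groups overlapped narrowly, with a log2 fold change of -0.93 ± 0.28 (adjusted p = 0.0345), and replicate 4 was the lowest library. Atp5sl lay at 16.8, 29.9, 19.5 and 8.57 CPM in Ppara KO, below all control libraries (-1.12 ± 0.31, adjusted p = 0.0220). Cox6b2 held 13 to 38 reads per control library and 0 to 3 per Ppara KO library. It passed the filter only through its control libraries, and its fitted log2 fold change of -3.92 ± 0.80 (adjusted p = 0.00642) depends at such counts on the prior of the fit and is no bound. Cox7a1 did not pass the filter in this fit, with 3 to 7 reads per Ppara KO library. It lay at 0.270, 0.316, 0.208 and 0.480 CPM there, below all control libraries, and was called lower by DESeq2, in the fit of all 24 libraries and without the libraries of steepest length trend. In Cpt2L-/- Ppara KO, Cox6b2 lay at 2.20 CPM in replicate 1 and at 0, 0.236 and 0.0931 CPM in the others.

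**Figure D3:**
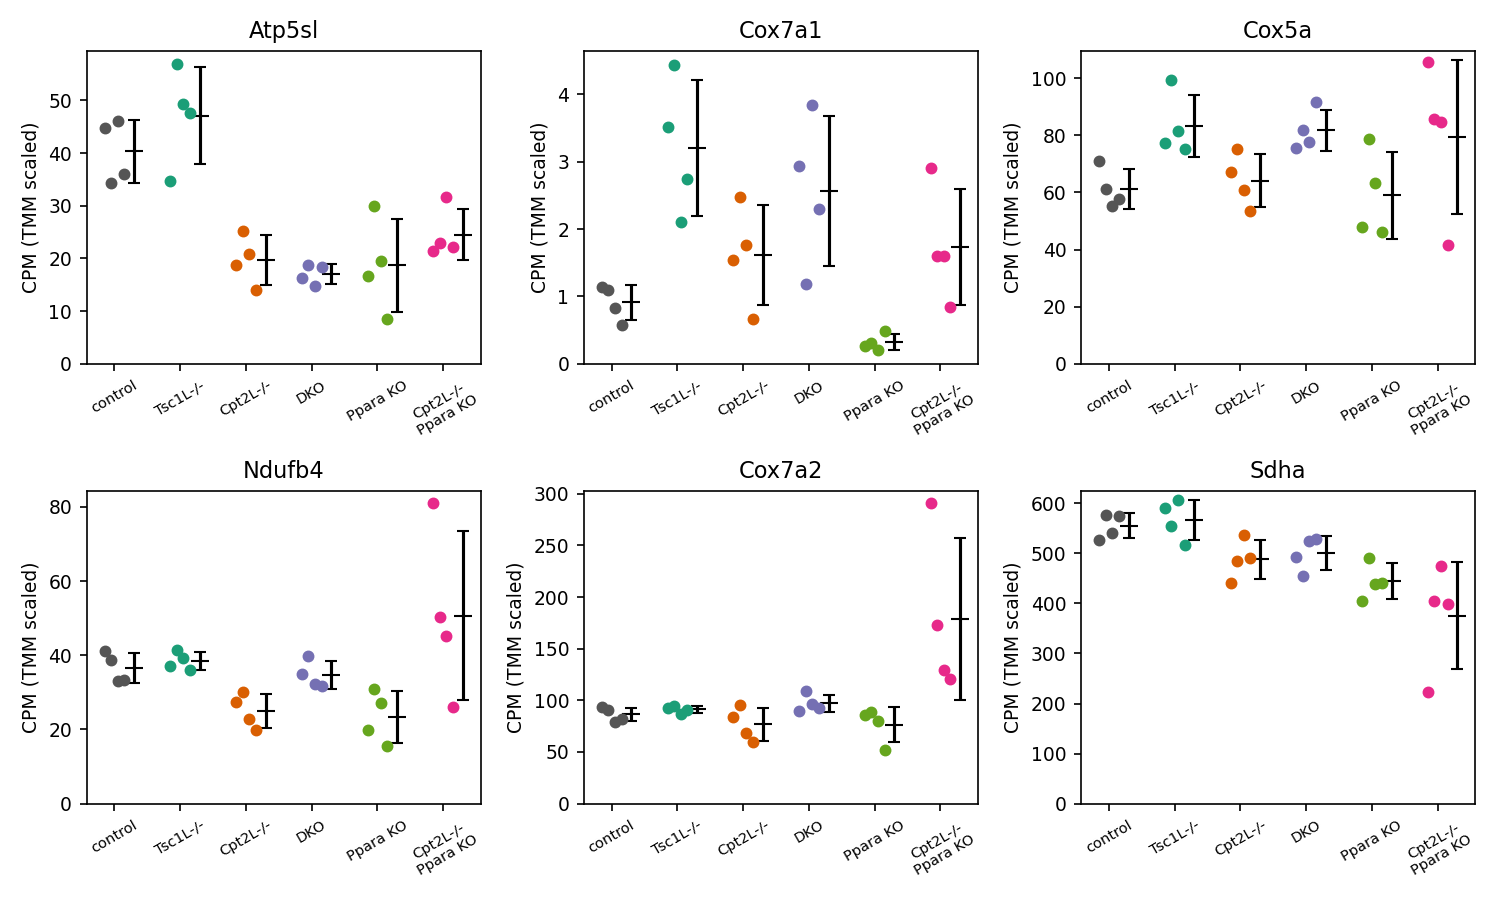
Level (CPM, y axis) of selected nuclear members in each library by genotype (x axis); points are libraries and bars are means with SD (n = 4). Atp5sl is low in every group that lacks Cpt2 or Ppara, and Cox7a1 was called higher in Tsc1L-/- and DKO and is lowest in Ppara KO.

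Mitochondrial members called in Ppara KO were higher. Here 3 of 13 (23.1%, beside 27.5% of all genes) were called higher and 0 lower, 11 lay above 0 and the median was 0.40. All called genes code for complex I subunits. mt-Nd5, a proton-pumping subunit at chrMT:11742-13565 on the plus strand, held 4365, 5957, 4159 and 3771 CPM in control and 6251, 12438, 10486 and 12031 CPM in Ppara KO. The groups did not overlap, though replicate 1 of Ppara KO lay close to the highest control library. The log2 fold change was 1.17 ± 0.26 (adjusted p = 0.00941).

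mt-Nd6, the only protein-coding gene of the minus strand (chrMT:13552-14070), held 977, 1412, 819 and 943 CPM in control and 1151, 2589, 2272 and 2390 CPM in Ppara KO. Replicate 1 of Ppara KO overlapped with control, and the log2 fold change was 1.01 ± 0.28 (adjusted p = 0.0217). Whether the counting used strand is not given in the sources used here, so reads of the other strand over mt-Nd6 cannot be told apart from its own. Calls of mt-Nd5 held when any of the 8 libraries was left out, and those of mt-Nd6 did not. Of the other complex I genes on the strand of mt-Nd5, mt-Nd1 (0.73, adjusted p = 0.0702), mt-Nd2 and mt-Nd4 did not pass the test. mt-Nd1 was called with DESeq2, in the fit of all 24 libraries, with total counts and with the offset for gene length. The Ppara KO libraries of mt-Nd1 spread from 4279 to 10321 CPM.

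mt-Nd3 had the largest rise of all members in this comparison. It held 6.64, 7.99, 3.96 and 5.34 CPM in control and 25.8, 32.1, 29.2 and 41.8 CPM in Ppara KO, with a log2 fold change of 2.43 ± 0.24 (adjusted p = 0.000169). Its copy RP23-8J15.5, whose sequence is given above, moved the other way, from 12, 18.7, 11.2 and 12.3 CPM in control to 4.10, 6.31, 6.24 and 9.32 CPM in Ppara KO. With the counts of both added, the log2 fold change was 0.99 ± 0.22 (adjusted p = 0.00860), so the size of the rise depends on where reads of the shared stretches were assigned. In Cpt2L-/- Ppara KO, mt-Nd3 lay at 24.0, 39.2, 11 and 8.52 CPM and the copy at 50.6, 24.8, 26.2 and 13.1 CPM. The part of read assignment in these values was not tested further.

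**Figure D4:**
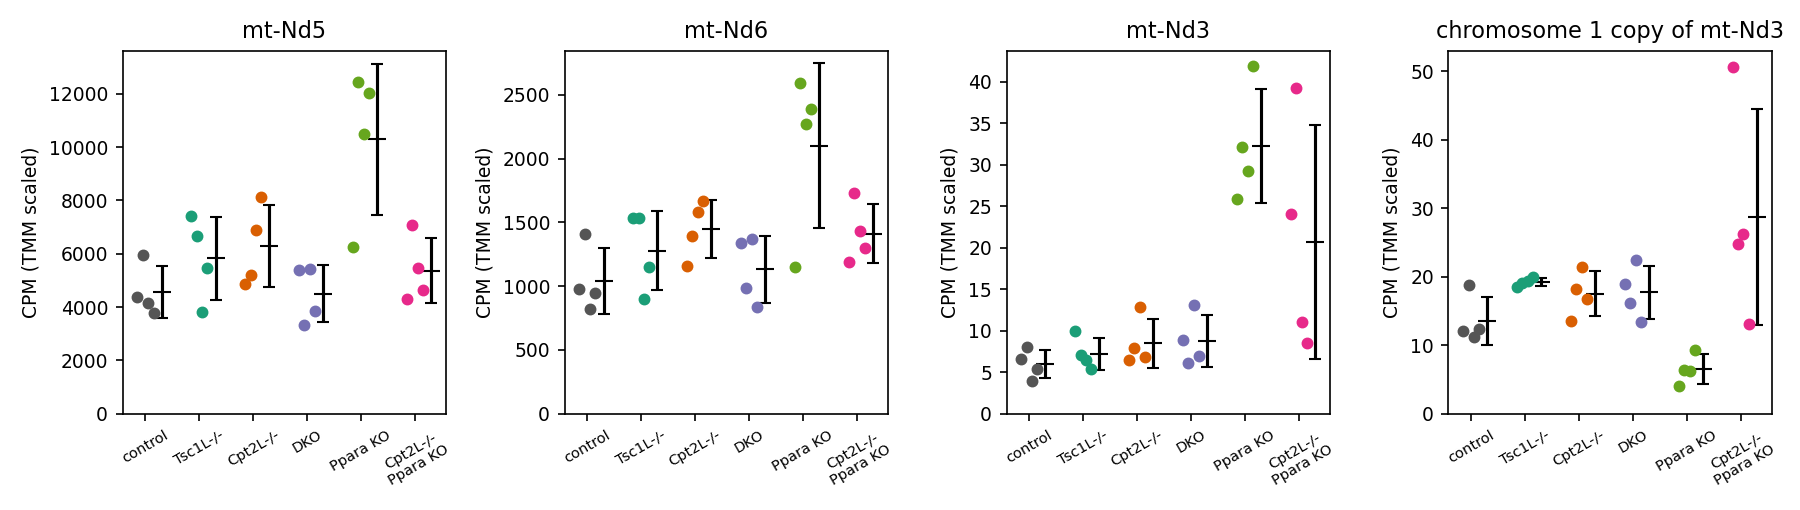
Level (CPM, y axis) of mitochondrial complex I members in each library by genotype (x axis); points are libraries and bars are means with SD (n = 4). mt-Nd5 reaches 12438 CPM in Ppara KO and lies between 4289 and 7066 in Cpt2L-/- Ppara KO.

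Cpt2L-/- Ppara KO was compared with each of its single deletions. Against Cpt2L-/-, 5 of 80 nuclear members were called higher and 0 lower where 13% of all genes were called, 6.88% higher and 6.1% lower. They were Cox7a2 (1.21 ± 0.29, adjusted p = 0.0232), Atp5e, the epsilon subunit of ATP synthase (1.15 ± 0.34, adjusted p = 0.0498), Ndufb4 (1.01 ± 0.30, adjusted p = 0.0480), Ndufa7 (1.0 ± 0.28, adjusted p = 0.0403) and Atp5s (0.82 ± 0.21, adjusted p = 0.0313). The median of nuclear members was 0.51, and that of other genes under 1000 bases was 0.66. With an offset for gene length the median of nuclear members was 0.01 and 2 were called, Cox7a2 among them. Each of the 5 lost its call without at least 4 of the 8 libraries, and without replicate 4 of Cpt2L-/- Ppara KO 38 were called. Of the mitochondrial members 0 were called by edgeR, 1 had an unadjusted p under 0.05 and DESeq2 called 1, with a median of 0.02.

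Against Ppara KO, 0 of 78 nuclear members were called by edgeR, 48 had an unadjusted p under 0.05 and DESeq2 called 22, with a median of 0.72 beside 0.76 for other genes under 1000 bases. DESeq2 called 9.13% of all its 21773 genes in this comparison. Cox7a1 had the largest fold change (2.42 ± 0.51, adjusted p = 0.0516), at 2.90, 1.60, 1.60 and 0.838 CPM in Cpt2L-/- Ppara KO, above all Ppara KO libraries, and was called by DESeq2, without the filter, with a replicate block and in the fit of all 24 libraries. It passed the filter here only through Cpt2L-/- Ppara KO, the group where it is higher, so these values are a description. By edgeR 0.868% of all genes were called, 0.462% higher and 0.407% lower. Of the mitochondrial members 0 were called by edgeR, 4 had an unadjusted p under 0.05 and DESeq2 called 3. Without replicate 4 of Cpt2L-/- Ppara KO, the library with the lowest levels of many nuclear members in its group, edgeR called 14 nuclear members.

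The spread within Cpt2L-/- Ppara KO was wide. Cox7a2, the liver form of the subunit and partner of Cox7a1, held 291, 173, 130 and 121 CPM there, against 84.3, 95.1, 68.6 and 59.6 in Cpt2L-/- and 85.5, 88.8, 80.3 and 51.6 in Ppara KO. All of its libraries thus lay above both single deletions and above control (79.4 to 93.5). Atp5e held 440, 280, 180 and 121 CPM against 103, 119, 112 and 58.1 in Ppara KO. Sdha went the other way in replicate 1, which had 223 CPM beside 404, 475 and 400 in the others, while control held 527 to 577. By the gene lengths of the table, Sdha has 2900 bases, Atp5e 1697 and Cox7a2 754.

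**Figure D5:**
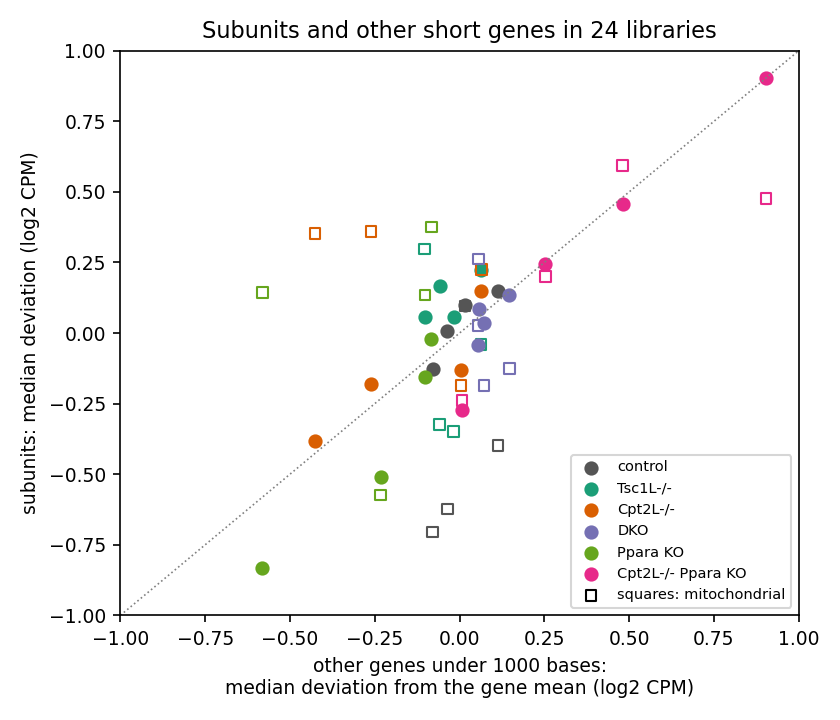
Median deviation (log2 CPM from the mean of 24 libraries) of nuclear members (circles) and mitochondrial members (open squares) on the y axis against that of other genes under 1000 bases on the x axis, coloured by genotype; the dotted line marks equal values. The circles lie along it (r = 0.92 over 24 libraries), with replicate 1 of Cpt2L-/- Ppara KO at 0.90 on both axes and replicate 4 of Ppara KO at -0.58 and -0.83.

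Across the 24 libraries, the median deviation of nuclear members followed that of other genes under 1000 bases with r = 0.92. Both medians come from the same libraries and share their depth and handling, so this is a description without a test. Mitochondrial members followed short genes with r = 0.23 and nuclear members with r = 0.28. The nuclear medians spread from -0.83 to -0.02 in Ppara KO and from -0.27 to 0.90 in Cpt2L-/- Ppara KO, while those of control lay between -0.13 and 0.15.

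The interaction of Cpt2 and Ppara asks whether loss of both differed from the sum of the single losses. It was called for 33 of 80 nuclear members, all higher, where 24% of all genes were called, 12% higher and as many lower. They include 17 of 38 in complex I, 2 of 4 in complex II, 3 of 8 in complex III, 2 of 13 tested in complex IV and 9 of 17 in complex V. The median was 0.94 and 77 of 80 lay above 0, but other genes under 1000 bases had a median of 0.95, and 280 of those 976 were called higher. Among called members, the largest interaction terms were those of Atp5k (1.84 ± 0.54, adjusted p = 0.0207), Atp5e (1.76 ± 0.42, adjusted p = 0.00743) and Ndufb4 (1.68 ± 0.39, adjusted p = 0.00600). The largest among called members of complexes IV, III and II were those of Cox7a2 (1.40 ± 0.36, adjusted p = 0.0103), Uqcrq (1.29 ± 0.40, adjusted p = 0.0269) and Sdhd (0.87 ± 0.28, adjusted p = 0.0332). The comparison shares its libraries with those above.

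Ndufb4 shows the values in single libraries. It was lower in Cpt2L-/- (27.5, 29.98, 22.8 and 19.9 CPM) and in Ppara KO (19.9, 30.9, 27.1 and 15.4 CPM) from 33.1 to 41.1 in control, but held 81.1, 50.5, 45.3 and 26 CPM in Cpt2L-/- Ppara KO. The last of these values lies within the range of both single deletions. Atp5k likewise held 224, 117, 102 and 46.1 CPM in Cpt2L-/- Ppara KO, beside 39.7 to 84.6 in Cpt2L-/- and 23.7 to 64.4 in Ppara KO.

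With an offset for gene length, 12 nuclear members were called in the interaction, 11 of them among the 33, and the median was 0.29. Ndufb4 kept its call (0.97, adjusted p = 0.0137), whereas Atp5k (0.80, adjusted p = 0.0904) and Cox7a2 (0.54, adjusted p = 0.0549) did not. Without the libraries with the steepest trends 15 were called, all among the 33, with a median of 0.53. Leaving out 1 library at a time gave between 16 calls, without replicate 4 of Cpt2L-/-, and 53, without replicate 4 of Cpt2L-/- Ppara KO. Whichever was left out, 16 of the 33 were called, among them Atp5e, Atp5k, Atp5sl, Cox7a2, Ndufb4 and Uqcrh. The part of gene length, or of whatever it stands for, in the remaining values was not tested.

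Among mitochondrial members, mt-Nd5 (-1.39 ± 0.37, adjusted p = 0.0131) and mt-Nd6 (-1.04 ± 0.35, adjusted p = 0.0400) had a negative interaction, and the median was -0.39. With the counts of nuclear copies added the median was -0.06, and with the offset for gene length it was -1.14 and 6 members were called, all lower. mt-Nd5 held 4289, 7066, 5480 and 4649 CPM in Cpt2L-/- Ppara KO, against 4870 to 8148 in Cpt2L-/- and 6251 to 12438 in Ppara KO. Libraries with both deletions thus lay within or near the range of Cpt2L-/- rather than above it. The call of mt-Nd5 held whichever library was left out, and without the libraries with the steepest trends mt-Nd6 lost its call (-0.91, adjusted p = 0.0776).

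The promoters of the nuclear members were read as a description. Windows from 250 bases before to 50 bases after the start were found in RefSeq (GRCm38.p6) for 70 of 85 nuclear members. On either strand, 16 of 70 (22.9%) held CCGGAAG, a core site of ETS factors such as Gabpa, against 9.93% of 27025 genes. The YY1 letters ATGGCG occurred in 20 (28.6%, against 10.2%), the NRF1 letters TGCGCA in 18 (25.7%, against 8.79%) and the estrogen-related receptor letters AAGGTCA in 8 (11.4%, against 5.38%). A match is a description of letters and not a bound site. These shares cover all 70 members, called or not, beside all genes with a window, so they do not bear on the interaction. The windows of the called members with the largest interaction in complexes V, I and IV are given 5′ to 3′ on the gene's strand, with matches in capitals. They lie at chr5:108434350-108434649 (Atp5k), chr16:37654319-37654618 (Ndufb4) and chr9:79759804-79760103 (Cox7a2), all on the minus strand.
Atp5k: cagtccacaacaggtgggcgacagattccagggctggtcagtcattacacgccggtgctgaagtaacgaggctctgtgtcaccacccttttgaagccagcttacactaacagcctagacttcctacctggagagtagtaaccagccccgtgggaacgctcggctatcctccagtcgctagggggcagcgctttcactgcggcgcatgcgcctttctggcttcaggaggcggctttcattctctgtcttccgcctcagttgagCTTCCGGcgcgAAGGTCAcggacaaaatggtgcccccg
Ndufb4: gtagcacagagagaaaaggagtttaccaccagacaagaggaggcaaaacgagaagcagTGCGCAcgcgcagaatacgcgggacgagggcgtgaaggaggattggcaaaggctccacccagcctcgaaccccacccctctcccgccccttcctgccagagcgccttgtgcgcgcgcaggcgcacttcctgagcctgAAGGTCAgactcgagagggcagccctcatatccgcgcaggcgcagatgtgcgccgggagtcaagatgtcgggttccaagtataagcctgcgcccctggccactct
Cox7a2: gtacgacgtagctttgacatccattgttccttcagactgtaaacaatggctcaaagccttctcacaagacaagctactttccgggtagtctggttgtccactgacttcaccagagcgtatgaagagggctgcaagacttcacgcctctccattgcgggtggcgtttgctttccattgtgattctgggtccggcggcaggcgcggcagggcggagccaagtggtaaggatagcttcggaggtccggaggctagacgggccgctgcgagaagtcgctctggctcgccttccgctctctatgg
In Atp5k the ETS letters start at base 13 after the start of the gene, read on the other strand, and AAGGTCA starts at base 24. In Ndufb4 TGCGCA starts 192 bases and AAGGTCA 55 bases before the start. The window of Cox7a2 holds none of these letters, though Cox7a2 was called as the others were, which says only that they are not in this window.

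The genes around the chain were described by lists taken by name. The mitochondrial ribosome, which translates the 13 mitochondrial members, had 18 of 76 genes lower and 3 higher in Cpt2L-/-, from Mrpl34 (-0.83) to Mrps18b (0.85), a share of 27.6% beside 31% of all genes. In DKO 17 were higher and 2 lower (such as Mrpl18, -0.37) against control, and 29 were higher and 1 lower against Cpt2L-/-, led by Mrps18a (1.05) and Mrpl45 (0.90), shares of 25% and 39.5% beside 36.4% and 18.3% of all genes. In Ppara KO 18 were lower and 2 higher, from Mrpl14 (-1.45) to Mrps18b (1.18), a share of 26.3% beside 27.5% of all genes. In the interaction of Cpt2 and Ppara 39 were higher and 2 lower, from Mrps18b (-0.93) to Mrps21 (2.07), a share of 53.9% beside 24% of all genes, where other genes under 1000 bases had a median of 0.95. Tsc1L-/- had 1 higher (Mrps36, 0.68) and 1 lower (Mrpl17, -0.58), a share of 2.63% beside 6.64% of all genes.

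Assembly factors, which build the complexes but are not part of them, had 11 of 40 lower and 4 higher in Cpt2L-/-, 7 higher and 1 lower in DKO, 13 lower and 1 higher in Ppara KO, and 18 higher and 0 lower in the interaction of Cpt2 and Ppara. These are shares of 37.5%, 20%, 35% and 45%, beside 31%, 36.4%, 27.5% and 24% of all genes. The extremes were Ndufaf5, a factor of complex I, at -0.91 in Cpt2L-/- and -1.10 in Ppara KO, Atpaf1, a factor of ATP synthase, at 0.49 and 0.69, Cox19 at 0.94 and Ndufaf6 at -0.42 in DKO, and Pet100 of complex IV at 2.29 in the interaction. Genes of mitochondrial DNA upkeep and expression had 3 of 37 higher and 4 lower in Cpt2L-/-, from Pnpt1 (-0.93), which degrades mitochondrial RNA, to Tbrg4 (0.77), which stabilises some of it. In DKO 6 were higher, led by Mpv17 (0.88), and 2 lower, led by Polg2 (-0.74), the accessory subunit of the mitochondrial DNA polymerase. In Ppara KO 3 were higher and 4 lower, where Tbrg4 stood at 0.85 and Hsd17b10, a subunit of mitochondrial RNase P, had the largest fall (-2.39, adjusted p = 0.000500). The shares called were 18.9%, 21.6% and 18.9% in these 3 comparisons, each below that of all genes. In DKO against Cpt2L-/- it was 21.6% beside 18.3%, and in the interaction of Cpt2 and Ppara 9 were higher and 3 lower, from Tbrg4 (-1.29) to Slirp (2.0), a share of 31.6% beside 24%.

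Of the electron carriers and entry points, 3 of 22 rose and 5 fell in Cpt2L-/-, from Adck3, a factor of ubiquinone synthesis (-1.59), to Gpd2, the glycerol 3-phosphate dehydrogenase that reduces ubiquinone (1.35). DKO had 4 higher and 4 lower, with the same genes at the ends, Adck3 at -1.90 and Gpd2 at 1.05. In Ppara KO 10 fell and 2 rose, from Etfdh, which passes electrons from fatty acid oxidation to ubiquinone (-1.97, adjusted p = 6.81e-05), to Prodh, the proline dehydrogenase (1.06). The shares called were 36.4% in Cpt2L-/- and in DKO, beside 31% and 36.4% of all genes, and 54.5% in Ppara KO, beside 27.5%. In the interaction of Cpt2 and Ppara 5 were higher and 1 lower, from Gpd2 (-1.66) to Sqrdl (1.42), a share of 27.3% beside 24%. Etfdh also fell in Tsc1L-/- (-0.61, adjusted p = 0.0254). Of 14 citrate cycle enzymes, 3 were higher and 1 lower in Cpt2L-/- (28.6%), 5 higher and 1 lower in DKO (42.9%), 1 higher and 4 lower in Ppara KO (35.7%) and 1 higher and 2 lower in the interaction of Cpt2 and Ppara (21.4%), beside 31%, 36.4%, 27.5% and 24% of all genes. Citrate synthase (Cs), the entry of the citrate cycle, rose in Cpt2L-/- (0.98, adjusted p = 1.83e-05), DKO (1.17, adjusted p = 2.42e-06) and Ppara KO (1.57, adjusted p = 0.000693), where Suclg1 fell (-1.09, adjusted p = 0.00167). The largest falls in Cpt2L-/- and DKO were those of Dld (-0.30) and Fh1 (-0.58), and the interaction ran from Cs (-1.55) to Idh2 (1.20).

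Of 17 transcription factors, coregulators and sirtuins tested that are known to act on mitochondrial genes, 6 were called higher in Cpt2L-/-, Pprc1 (1.07), Nrip1 (0.97), Nrf1 (0.79), Gabpb1 (0.62), Esrra (0.48) and Yy1 (0.33), and the deacetylase Sirt3 was lower (-0.43), a share of 41.2% beside 31% of all genes. The shares in DKO against control, Cpt2L-/- and Tsc1L-/- were 23.5%, 17.6% and 23.5%, beside 36.4%, 18.3% and 32.2%. In DKO Pprc1 (0.76) and Nrip1 (0.63) were higher and Sirt3 (-0.56) and Esrrg (-1.69) lower, and against Cpt2L-/- Nrf1 (-0.55), Esrra (-0.46) and Yy1 (-0.42) were lower in DKO. Against Tsc1L-/-, Nrip1 (0.76) and Pprc1 (0.70) were higher and Sirt3 (-0.67) and Ppargc1b (-1.06) lower. In Ppara KO against control 6 were higher, Pprc1 (1.39), Nrip1 (1.28), Gabpb1 (0.93), Hcfc1 (0.90), Nrf1 (0.80) and Gabpa (0.64). Lower there were the coactivator Ppargc1a (-1.33), Sirt3 (-0.81), Ppara itself (-3.23) and Esrrg, which was at 0 in 3 of 4 libraries. These 10 include Ppara, the deleted gene, and Esrrg, which passed the filter only through control, so their share is not set against that of all genes. Ppara (-2.65) and Esrrg were also the genes of this list called in Cpt2L-/- Ppara KO against Cpt2L-/-, where Ppara is again the deleted gene and no share is set against that of all genes either. In Tsc1L-/- (11.8%, beside 6.64% of all genes), Ppargc1b rose (1.05, adjusted p = 0.00873) and Esrrg fell (-2.35, adjusted p = 0.0339), and the effect of Cpt2 loss on Ppargc1b differed with Tsc1 (-1.59, adjusted p = 0.0144). Control, where Esrrg is high, carried it past the filter in the fit with Ppara KO. The falls of Esrrg in Tsc1L-/- and DKO, and the shares that count them, are thus a description. In the interaction of Cpt2 and Ppara (41.2%, beside 24% of all genes), Pprc1 (-2.25), Nrip1 (-2.05), Hcfc1 (-1.48), Nrf1 (-1.07) and Gabpb1 (-1.03) were negative, and Ppargc1a (1.70) and Sirt3 (0.75) positive.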

How the data were processed

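Liver RNA of fasted mice of 6 genotype groups was sequenced in 24 libraries as single reads of 75 bp from stranded mRNA libraries. The deposited table gives the authors' raw read counts per gene together with gene coordinates (GRCm38) and gene lengths, and a second table gives the authors' FPKM values, which served only to compare genes per length and were not tested. The submitters' processing notes name STAR 2.5, HTSeq 0.6.1, Bowtie 0.12.2, TopHat, STAR-Fusion, DESeq2 and edgeR, without roles. Which of them counted these reads is not given in the sources used here. No sample column was left unused (0).

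Counts were tested with edgeR 4.0.16 (R 4.3.3), with TMM scaling, a filter on low counts (filterByExpr, minimum count 10 and minimum total 15), quasi-likelihood F-tests and Benjamini-Hochberg adjustment over all genes tested, with a threshold of 0.05. Control, Tsc1L-/-, Cpt2L-/- and DKO shared 1 fit of 16 libraries. Each comparison with a Ppara group was fitted on its own 8 libraries, and the interaction of Cpt2 and Ppara on 16. CPM values are scaled by TMM over all 24 libraries.

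Members and gene lists were chosen with earlier results of these data known. Named were the mitochondrial members, the succinate dehydrogenase subunits, restricted isoforms with their liver forms, the called nuclear member with the largest rise and fall of each complex in each comparison, called regulators, and the extremes of the other lists, the last given for the main comparisons. Other members named were chosen after their values were seen. Alternatives were no filter, other scalings (RLE, total counts, TMM without mitochondrial genes), DESeq2 1.42.0, other sets of libraries, a replicate block and leaving out each library. A gene-length offset, adding the counts of nuclear copies and leaving out the 2 libraries of steepest length trend were chosen after seeing the data. On simulated counts for Tsc1L-/- against control, edgeR recovered 163 of 200 changed genes with 6 false calls among 13538 genes tested, and DESeq2 recovered 174 with 27 false calls. The simulated log2 fold changes were 1 or 2 in either direction, and many members called here differed by less. The simulation held no trend with gene length and no outlying library, so its rates do not carry over to these results.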

Additional observations from a re-analysis of the deposited data

Results flagged for a closer look

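In groups of 4 libraries, the highest or lowest library was set against the gap to its nearest neighbour by Dixon's test, over 78 groups of values. This picked out 3, and chance gives about 1 in 20. The share of counts on mitochondrial members in Tsc1L-/- had replicate 1 at 6.82%, apart from the other libraries of its group (4.91 to 5.19). Atp5sl in Cpt2L-/- Ppara KO had a highest library of 31.7 CPM, and Cox6b2 in the same group had replicate 1 at 2.20 CPM with the others at 0 to 0.236.

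The effect of Cpt2 loss differed between livers with and without Ppara by the interaction term of edgeR. This held for 33 of 80 nuclear members (41.2%), all with a positive term, and for 2 of 13 mitochondrial members (15.4%), both with a negative one, where 24% of all genes were called. By the named rule, the nuclear ones were Atp5k (1.84), Ndufb4 (1.68), Cox7a2 (1.40), Uqcrq (1.29) and Sdhd (0.87), together with Atp5sl (1.45), which was lower in each single deletion and not further lower in Cpt2L-/- Ppara KO. The mitochondrial ones were mt-Nd5 (-1.39) and mt-Nd6 (-1.04). Other genes under 1000 bases had a median interaction of 0.95, and its part in these values was not tested.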

How the results depend on the processing

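No named gene's call turned to the other direction past the threshold under the alternatives run. The balance of nuclear calls for DKO against Tsc1L-/- turned from 2 higher and 5 lower to 4 higher and 1 lower with total counts without TMM. Medians of members changed sign under total counts (nuclear, DKO against Tsc1L-/-), the offset for gene length (nuclear in DKO and in the interaction of Tsc1 and Cpt2, mitochondrial for Cpt2L-/- Ppara KO against either single deletion) the replicate block (mitochondrial, Cpt2L-/- Ppara KO against Cpt2L-/-) and without single libraries (nuclear in DKO without replicate 3 of control, -0.004, and mitochondrial in Cpt2L-/- Ppara KO against Cpt2L-/- without replicate 2 of the former, -0.12). The counts that changed by over 1.5 times are given as nuclear or mitochondrial members called, beside the main counts in brackets. In 1 fit of all 24 libraries the nuclear counts were 1 (4) for Tsc1L-/-, 1 (11) for Cpt2L-/-, 2 (5) for DKO, 0 (7) for DKO against Cpt2L-/-, 1 (7) for DKO against Tsc1L-/-, 28 (5) for Cpt2L-/- Ppara KO against Cpt2L-/- and 57 (0) against Ppara KO, with mitochondrial counts of 1 (0) and 4 (0) in the last pair. The share of all genes called moved too, in the same order to 2.86% (6.64%), 20% (31%), 24.9% (36.4%), 7.61% (18.3%), 21.3% (32.2%), 23.2% (13%) and 30.8% (0.868%). A fit of Tsc1L-/- and control alone gave 1 (4). Total counts without TMM gave 4 (11) nuclear and 11 (4) mitochondrial for Cpt2L-/-, 16 (5) and 9 (2) for DKO, 13 (7) nuclear for DKO against Cpt2L-/- and 2 (0) mitochondrial for DKO against Tsc1L-/-. DESeq2 gave 1 (0) mitochondrial in the interaction of Tsc1 and Cpt2, 14 (5) and 1 (0) for Cpt2L-/- Ppara KO against Cpt2L-/-, and 22 (0) and 3 (0) against Ppara KO. Of all genes DESeq2 called 3.34%, 12.8% and 9.13% in these comparisons, beside 2.38%, 13% and 0.868% by edgeR. Without the filter on low counts, counts were 4 (7) nuclear for DKO against Tsc1L-/-, 8 (5) for Cpt2L-/- Ppara KO against Cpt2L-/-, 2 (0) and 1 (0) mitochondrial against Ppara KO, and 1 (2) mitochondrial in the interaction of Cpt2 and Ppara.

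Of the alternatives chosen after seeing the data, the offset for gene length gave 9 (4) mitochondrial for Cpt2L-/-, 1 (0) for DKO against Cpt2L-/-, 17 (7) nuclear for DKO against Tsc1L-/-, of which 15 lower, 2 (5) nuclear and 1 (0) mitochondrial for Cpt2L-/- Ppara KO against Cpt2L-/-, and 12 (33) and 6 (2) in the interaction of Cpt2 and Ppara. Leaving out the 2 libraries of steepest length trend gave 15 (33) and 1 (2) in that interaction. The cause of these changes was not tested.

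Leaving out 1 library at a time, the nuclear count ranged from 1 to 4 for Tsc1L-/- (1 without replicate 3 or 4 of control or 2 of Tsc1L-/-, 2 without replicate 2 of control or 1 of Tsc1L-/-). It ranged from 4 to 23 for Cpt2L-/- (4 without replicate 1 of control, 5 without 4 of Cpt2L-/-, 6 without 2 or 4 of control or 3 of Cpt2L-/-, 23 without 2 of Cpt2L-/-), with 2 to 9 mitochondrial (9 without replicate 2 of control, 2 without 3 or 4 of control or 4 of Cpt2L-/-). For DKO it was 4 to 6, with 2 to 5 mitochondrial (5 without replicate 2 of control). Against Cpt2L-/- DKO had 2 to 19 (19 without replicate 2 of Cpt2L-/-, 2 without 3, 4 without 4, 3 without 2 of DKO) and 0 to 1 mitochondrial (replicate 1 of Cpt2L-/-). Against Tsc1L-/- it had 2 to 10 (2 without replicate 4 of DKO, 3 without 3, 4 without 1 or 2 of DKO or 1, 2 or 4 of Tsc1L-/-, 10 without 2 of Cpt2L-/-) and 0 to 1 mitochondrial (replicate 3 of control, 1 of Tsc1L-/- or 2 of DKO). Ppara KO had 5 to 24 (5, 7, 9 and 8 without replicates 1 to 4 of control, 10 without 1 and 8 without 3 of Ppara KO, 24 without 2) and 2 to 4 mitochondrial. Cpt2L-/- Ppara KO had 0 to 38 against Cpt2L-/- (0 without replicate 1, 3 or 4 of Cpt2L-/-, 2 without 2, 1 without 2 and 2 without 3 of Cpt2L-/- Ppara KO, 38 without its replicate 4) and 0 to 14 against Ppara KO (14 without that library, 1 without replicate 1 of Ppara KO), both with 0 to 1 mitochondrial (1 without that library). The interaction of Cpt2 and Ppara had 16 to 53 (20 without replicate 1 of control, 21 without 3 and 16 without 4 of Cpt2L-/-, 20 without 4 of Ppara KO, 53 without 4 of Cpt2L-/- Ppara KO) and 1 to 3 mitochondrial. The interaction of Tsc1 and Cpt2 had 0 throughout for both kinds.

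The labels do not say that replicate numbers pair the libraries, and in no fit was every same-number correlation over 0.1, so they were not taken as pairs. Deviations of libraries with the same number correlated at -0.01 on average over control, Tsc1L-/-, Cpt2L-/- and DKO, over 0.1 in 4 of 24 pairs, and 3 of 16 libraries correlated best with their own number. For Cpt2L-/- Ppara KO the mean was 0.06 with Cpt2L-/- (1 of 4 pairs over 0.1, 4 of 8 libraries best with their own number) and 0.05 with Ppara KO (2 of 4 pairs, 3 of 8 libraries). In the fit of the interaction of Cpt2 and Ppara it was 0.04 (5 of 24 pairs, 8 of 16 libraries). A replicate block gave 11 (7) nuclear calls for DKO against Cpt2L-/-, 16 (5) for Cpt2L-/- Ppara KO against Cpt2L-/- and 11 (0) against Ppara KO, and changed no other count by over 1.5 times. With it the shares of all genes called in these comparisons were 17.1% (18.3%), 16.7% (13%) and 7.17% (0.868%). Depth limited the restricted isoforms Cox4i2, Cox6a2, Cox8b, Cox8c and Cox7b2, which were too low to be tested, and the filter left Cox7a1 and Ndufa4l2 out of the comparison of Ppara KO with control, where DESeq2 and other fits did call Cox7a1.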
